A study of Setaria viridis with 32 samples.

Results

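A set of 200 genes of *Setaria viridis*, of 38334 annotated loci, had low transcript levels in seed heads up to anthesis and higher levels that were held between 8 and 16 days after anthesis (DAA). The genes were chosen by their CPM (reads of a gene scaled to the total of its library). In ecotypes ME034V and A.10 alike, the means at 8 and 16 DAA had to lie between 10 and 500 CPM and within 1.5-fold of each other, and 10399 loci met these limits. A score then ranked them, which is log2 of the lower late mean (8 or 16 DAA) minus log2 of the higher early mean (50% seed head emergence, 50% SH, or anthesis), each with 0.5 CPM added, in the ecotype where it was smaller. The 200 highest, 1.92% of the loci inside the limits, are the members. The 177 genes of sugar transport and metabolism that the study lists were left out and are used here for comparison. Every difference between late and early levels, and between 8 and 16 DAA, was set by this choice and is given as a description without a test. The files and the reference tables pair 0 of the 200 identifiers with a gene name, so members are described by locus.

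RNA came from whole seed heads of wild-type ME034V, the ecotype used for transformation, and A.10, the ecotype of the reference genome, grown in a chamber and collected at 50% SH, at anthesis and 8 or 16 days later. Labels of some stages count days from flowering. The 32 libraries (4 replicates for each ecotype and stage, each made from 4 plants) had 4557079 to 21175874 counted reads (median 8178992). Levels are averages over all tissues of a seed head, where fewer cells of a type cannot be told apart from less RNA per cell.

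In grasses, fertilization at anthesis starts the growth of the embryo and the endosperm, the tissue in which the grain lays down starch and storage protein. Genes active only in these tissues have few transcripts in a head that has not yet flowered. Starch synthases and starch branching enzymes build the starch granule, cell wall invertases cleave sucrose outside the cell at sites of unloading, and TIP3 aquaporins are water channels of the membrane around protein storage vacuoles in seeds.

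The members' median level in ME034V was 0.509 CPM at 50% SH, 1.66 CPM at anthesis, 41.6 CPM at 8 DAA and 40.7 CPM at 16 DAA. In A.10 it was 0.359, 1.42, 45.4 and 43.0 CPM at the same stages. Added up, the members took 13039 to 14308 CPM of each ME034V library at 8 DAA and 10698 to 15333 CPM at 16 DAA, against 1107 to 1179 CPM at 50% SH and 1525 to 1739 CPM at anthesis. In A.10 the sums were 13290 to 15810 CPM at 8 DAA and 13864 to 14790 CPM at 16 DAA, against 1025 to 1163 CPM at 50% SH and 1645 to 1737 CPM at anthesis. Late and early sums did not overlap in either ecotype, which the choice of members favours.

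**Figure D1:**
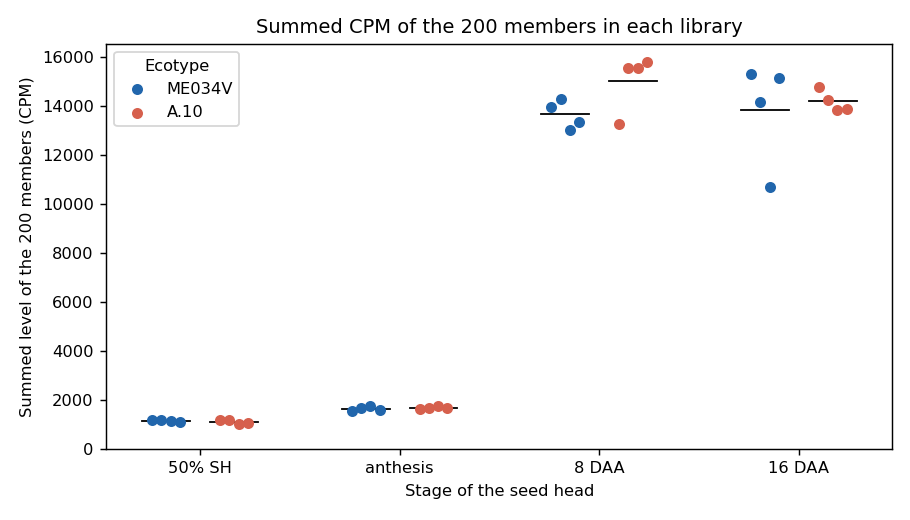
Summed level of the 200 members (y axis, CPM, linear from 0) in each library by stage (x axis), with 4 libraries per ecotype and stage as points and their mean as a line. No 8 or 16 DAA library lies below 10698 CPM and no earlier library above 1739 CPM, and ME034V 16 DAA replicate 3 (10698 CPM) and A.10 8 DAA replicate 1 (13290 CPM) lie below their groups.

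The description of the set as genes switched on after anthesis fits only some of the members. Scores ran from 7.54 (a 186-fold difference) to 1.36 (2.57-fold), with a median of 3.33 (10.1-fold). They fell into a strong and a weak part, with 94 members at a score of at least 4, 47 from 2 to 4 and 59 under 2. In 87 members every early mean was under 1 CPM, whereas 49 had an early mean of at least 10 CPM and the highest early mean was 88.4 CPM. Members scoring at least 4 had median levels of 0.0602, 0.173, 45.4 and 40.3 CPM through the 4 stages of ME034V and 0.0891, 0.245, 45.6 and 42.8 CPM in A.10. Those scoring under 2 had medians of 7.86 CPM in ME034V and 8.31 CPM in A.10 at 50% SH and late medians of 50.7 to 60.1 CPM. By these medians they were raised from a level already present, though not every one was. *Sevir.9G095900*, with a score of 1.76, averaged 0.0541 CPM in ME034V and 0.0202 CPM in A.10 at 50% SH. Over the 16 early libraries together the members had between 1 and 10948 reads (median 165), and 21 members had at most 10. In the 4 ME034V libraries of 50% SH, 21 members had no read, and in those of anthesis 2 had none. The numbers for A.10 were 8 and 1. In 198 of 200 members every late library of both ecotypes lay above every early library of both. The choice of members favours this separation, and its share over other loci was not counted.

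The member with the highest score was *Sevir.1G043700*, a locus of 1491 bp on chromosome 1 (4140050 to 4141540, minus strand, *S. viridis* v2.1). Its levels in ME034V were 0.180, 0.449, 0.361 and 0.380 CPM at 50% SH, 0.166, 1.68, 0.254 and 0.0944 CPM at anthesis, 305, 337, 254 and 267 CPM at 8 DAA, and 298, 280, 112 and 321 CPM at 16 DAA. In A.10 they were 0.565, 0.280, 0.658 and 0.182 CPM at 50% SH, 0.624, 0, 4.42 and 0.512 CPM at anthesis, 379, 461, 343 and 415 CPM at 8 DAA, and 366, 384, 340 and 311 CPM at 16 DAA. No late library came near an early one, but replicate 3 of A.10 anthesis stood above the other 3 and replicate 3 of ME034V 16 DAA below the other 3. The difference between ecotypes did not pass the test at either late stage, with log2 fold changes (ME034V over A.10) of -0.51 (SE 0.28, edgeR adjusted p = 0.22) at 8 DAA and -0.53 (SE 0.28, edgeR adjusted p = 0.18) at 16 DAA. At 8 DAA every ME034V library lay below every A.10 library, and the difference passed in 2 of 40 alternatives. At 16 DAA the libraries overlapped and it passed in 0 of 40.

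By the mean over both late stages and both ecotypes, the highest late level per length belonged to *Sevir.9G300700*. This is a short locus of 600 bp on chromosome 9 (32734897 to 32735496). Its deposited log2 FPKM (fragments scaled to locus length and library size) averaged 9.02 at 8 DAA and 8.94 at 16 DAA in ME034V, and 8.36 and 7.94 in A.10, at percentiles 99.5 to 99.9 of the loci listed for each ecotype. It was the highest member in ME034V only, as members of A.10 reached 8.91 at 8 DAA and 8.58 at 16 DAA. In CPM it measured 354, 351, 226 and 274 at 8 DAA in ME034V against 171, 203, 179 and 196 in A.10, and 429, 295, 121 and 330 at 16 DAA in ME034V against 117, 136, 134 and 147 in A.10. The ecotypes did not overlap at 8 DAA, and at 16 DAA only ME034V replicate 3 fell among the A.10 libraries. The difference passed the test at 16 DAA (log2 fold change 1.08, SE 0.27, edgeR adjusted p = 0.0025), though not with DESeq2 (1.11, adjusted p = 0.064). At 8 DAA it did not pass (0.64, SE 0.26, edgeR adjusted p = 0.085), but it did without ME034V 16 DAA replicate 3 (adjusted p = 0.016). Over all members, median log2 FPKM was 4.12 and 4.22 in ME034V at 8 and 16 DAA and 4.33 and 4.24 in A.10, at percentiles 86.1 to 88.8 of listed loci.

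The last member inside the rank limit was *Sevir.5G252300* on chromosome 5, with a score of 1.36187, and the first outside was *Sevir.1G289900*, with 1.35932. *Sevir.5G252300* averaged 12.6, 18.8, 56.9 and 49.2 CPM through the stages of ME034V and 8.79, 16.4, 54.2 and 51.6 CPM through those of A.10. *Sevir.1G289900* averaged 4.55, 7.46, 20.2 and 19.9 CPM in ME034V and 3.92, 5.70, 17.9 and 18.3 CPM in A.10. On both sides of the limit the late level stood over one already present before flowering. The score alone was reached by 862 loci outside the sugar list, of which 471 had a late mean under 10 CPM, 50 had one over 500 CPM and 142 inside those levels failed the 1.5-fold limit between 8 and 16 DAA.

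**Figure D2:**
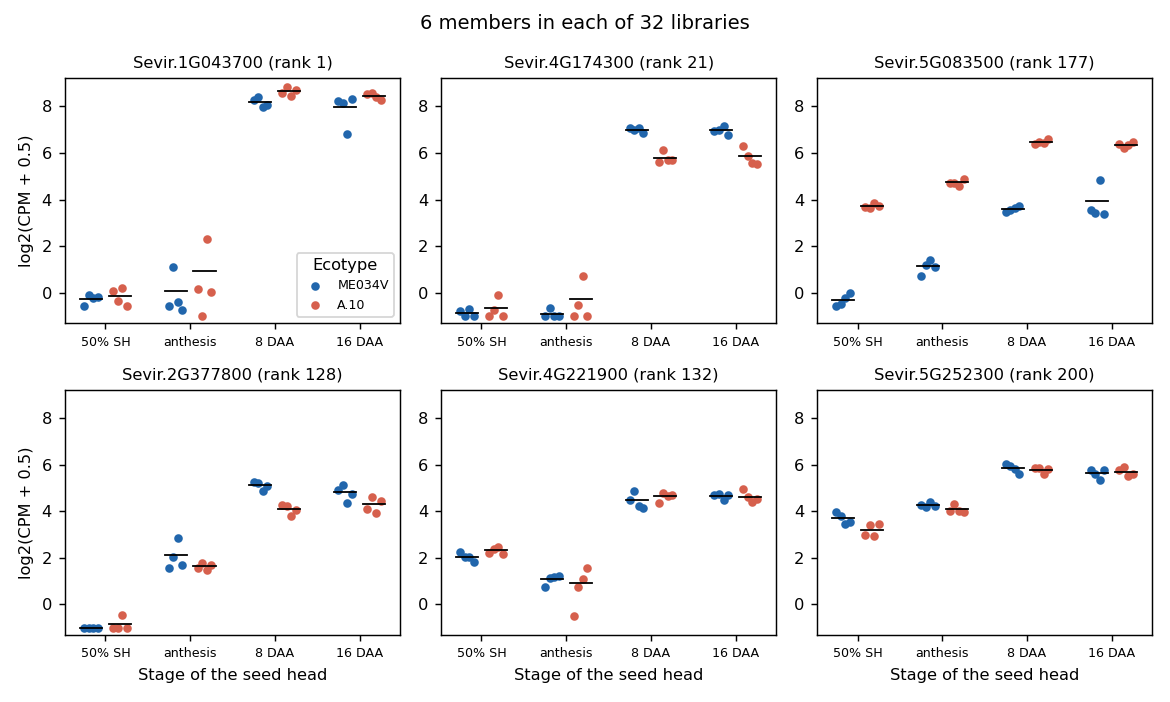
Levels of 6 members in each of 32 libraries as log2(CPM + 0.5) (y axis) by stage (x axis), with ME034V in blue and A.10 in red, 4 libraries per group as points and the log2 of the mean CPM + 0.5 as a line. *Sevir.1G043700* and *Sevir.4G174300* are near 0 CPM up to anthesis, *Sevir.2G377800* is intermediate at anthesis, *Sevir.4G221900* dips there, *Sevir.5G083500* is lower in ME034V at every stage, and *Sevir.5G252300* starts from a level of about 10 CPM.

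Early libraries of one group differed over much of the set, most visibly at anthesis. In A.10 anthesis replicate 3, only 3 of the 94 members with a score of at least 4 had no read, against 33 to 52 in the other A.10 anthesis libraries. Their median level there was 1.52% of the late A.10 mean, with an interquartile range of 1.01 to 1.88%, against medians of 0 to 0.203% in the other 3 libraries of the group. Their summed level was 101 CPM there, against 23.3 to 26.6 CPM in those 3. This library was the highest of its group in 111 of 200 members (55.5%) and in 20.7% of all loci tested. A locus next to a run of members, *Sevir.8G199000*, one of the most abundant late transcripts at a mean of 9501 to 14428 CPM, measured 123 CPM in this library, against 7.49 to 13.2 CPM in the other A.10 anthesis libraries. The ME034V anthesis libraries also spread. Replicates 1, 2 and 3 had medians of 0.361 to 0.560% for the same members and replicate 4 of 0.0503%. Replicate 2 had no read for 15 of the 94 members, against 24 to 44 in the other 3, and 49.0 CPM of *Sevir.8G199000*, against 0.756 to 13.3 CPM in the other 3. The cause was not tested. Without A.10 anthesis replicate 3, 199 of the 200 members were chosen again.

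**Figure D3:**
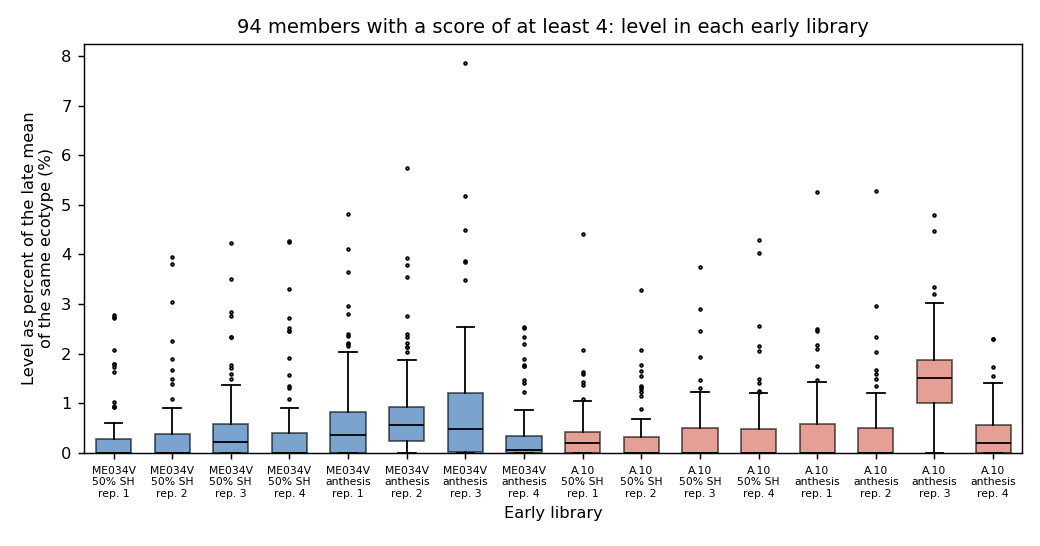
Level of the 94 members with a score of at least 4 in each of the 16 early libraries (x axis), as a percent of the late mean of the same ecotype (y axis, linear from 0). Boxes show the median and quartiles over members, whiskers reach 1.5 times the interquartile range and points are members beyond them, and A.10 anthesis replicate 3 stands out with a median of 1.52%.

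Among late libraries, ME034V 16 DAA replicate 3 was the lowest of its group in 152 members (76.0%) and in 37.0% of all loci tested, and 100 members were over 1.5-fold below the mean of the other 3 libraries. The median log2 ratio to those was -0.59 over the members and -0.06 over all loci inside the limits. A.10 8 DAA replicate 1 was lowest in 118 members (59.0%, against 19.5% of all loci tested), with a median log2 ratio of -0.21 over the members and 0.08 over the loci inside the limits. The median coefficient of variation of the members was accordingly wide at 16 DAA in ME034V, 24.6% (13.1% over the loci inside the limits), against 10.99% in A.10 (8.37%). At 8 DAA it was 12.2% in ME034V (9.16%) and 13.5% in A.10 (8.67%). Counts below are also given without these 2 libraries and A.10 anthesis replicate 3, a choice made after the data were seen.

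How closely the level was held between 8 and 16 DAA was set by the choice, and whether it differed between ecotypes was not tested. The median ratio of 16 over 8 DAA was 0.976 in ME034V, where 87 members were higher at 16 DAA, and 0.884 in A.10, where 54 were. In both ecotypes 38 members were higher at 16 DAA and 97 lower. These values moved with the libraries named above. Without the 3 libraries the median ratio was 1.04 in ME034V, where 119 members were higher at 16 DAA, and 0.846 in A.10, where 46 were.

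The first comparison asks whether the members had begun to move by anthesis. The choice used the higher of the 50% SH and anthesis means in each ecotype, though not the difference between them, so both groups entered it and the counts describe the members only. From 50% SH to anthesis, 57 of 200 members rose in ME034V and 3 fell (edgeR adjusted p under 0.05), where 10.4% of all loci tested rose and 8.14% fell. In A.10 64 rose and 8 fell, where 16.7% rose and 17.8% fell. Of these, 50 rose in both ecotypes, 3 fell in both and 0 moved in opposite directions. The share of all loci called in both ecotypes was not counted. In the 8 libraries of the step alone, 112 of 200 members in ME034V and 105 in A.10 passed the filter of CPM above 1 (3 or more libraries), while the others entered the test only through their late libraries. A fit on those 8 libraries called 54 of the 112 higher at anthesis and 3 lower in ME034V, where 12.6% of loci tested were higher and 8.46% lower. In A.10 it called 59 of the 105 higher and 9 lower, where 20.8% were higher and 18.6% lower. Of the next 200 loci by the same score, 35% in ME034V and 47% in A.10 were called higher, against 28.5% and 32% of all 200 members. These shares cannot be ranked, since many members entered the test only through their late libraries. The median log2 fold change was 0.59 in ME034V and 0.89 in A.10 over the members, against 0.32 and 0.34 over the next 200. A rise by anthesis was also common just outside the set and is not particular to the members. The number of falls varied with single libraries. In ME034V 5 members fell without anthesis replicate 1 and 8 without 16 DAA replicate 3, and in A.10 4 fell without 50% SH replicate 2 or anthesis replicate 2 and 5 without 50% SH replicate 3.

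Members that rose by anthesis were mostly those with weaker scores. Of the 59 members scoring under 2, 29 rose in both ecotypes, of the 47 scoring from 2 to 4 16 did, and of the 94 scoring at least 4 5 did. A rise by anthesis lowers the score. Few early reads limit the test, as only 112 of 200 members had CPM above 1 in at least 3 of the 16 early libraries. The 50 members that rose in both reached, at anthesis, a median of 18.1% of their late level in ME034V and 18.5% in A.10. Over all members this share was 4.69% and 4.02%.

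By the mean of the fitted log2 fold changes in both ecotypes, *Sevir.2G377800* on chromosome 2 (42889700 to 42892042) ranked first among the rises to anthesis called in both, though with so few reads at 50% SH its order against the next locus is not resolved. In ME034V it measured 2.48, 3.62, 6.61 and 2.74 CPM at anthesis, against no read in any of the 4 libraries at 50% SH. In A.10 it measured 2.50, 2.96, 2.27 and 2.77 CPM at anthesis, against 1 read in all at 50% SH. Anthesis and 50% SH libraries did not overlap. With 153 reads at anthesis against a floor of 3 reads over the 4 libraries of 50% SH, the level was at least 43.2-fold higher at anthesis in ME034V (edgeR adjusted p = 5.0e-06). In A.10, 72 reads against 1 give a ratio of 86.6 (exact 95% interval 15.1 to 3468, counting error only, edgeR adjusted p = 6.4e-07). Its late means were 34.2 and 27.7 CPM in ME034V and 16.6 and 19.1 CPM in A.10, so the larger part of its late level came after anthesis.

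*Sevir.9G095900* on chromosome 9, the next by the same rank, also rose in both ecotypes. It had 171 reads at anthesis and 2 at 50% SH in ME034V, a ratio of 72.4 (exact 95% interval 19.7 to 602, edgeR adjusted p = 4.5e-07). In A.10 it had 170 reads at anthesis and 1 at 50% SH, a ratio of 204 (36.2 to 8124, edgeR adjusted p = 3.6e-10). At anthesis it measured 2.48, 4.01, 6.86 and 3.35 CPM in ME034V and 6.86, 5.53, 6.06 and 6.25 CPM in A.10. Its late means were 23.9 and 22.4 CPM in ME034V and 31.003 and 22.1 CPM in A.10.

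*Sevir.4G221900* on chromosome 4 had the largest fall called in both. In ME034V it measured 1.16, 1.68, 1.78 and 1.84 CPM at anthesis, against 4.31, 3.59, 3.61 and 3.04 CPM at 50% SH, and in A.10 0.208, 1.19, 1.64 and 2.46 CPM against 4.12, 4.76, 5.05 and 4.01 CPM. The stages did not overlap in either ecotype. The log2 fold change was -1.15 (SE 0.22, edgeR adjusted p = 0.0010) in ME034V and -1.51 (SE 0.32, edgeR adjusted p = 0.0014) in A.10. In each ecotype this fall was called in all 25 alternatives. At 8 and 16 DAA it averaged 21.6 and 24.8 CPM in ME034V and 24.3 and 24.3 CPM in A.10, so its late level followed a dip at flowering.

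The step to anthesis differed between ecotypes in 1 member by the test of the difference itself, where 0.0712% of all loci tested had a lower step in ME034V and 0.0475% a higher one. By DESeq2 it was also 1 member. Without adjustment 25 of 200 members passed with edgeR, and 20 of 112 in the fit on the 16 early libraries alone. The share of all loci passing without adjustment was not counted. *Sevir.5G394400* on chromosome 5 rose by 1.85 (SE 0.17) in ME034V and by 3.02 (SE 0.15) in A.10, a difference of -1.18 (SE 0.25, edgeR adjusted p = 0.046). It measured 21.9, 23.5, 23.1 and 23.2 CPM at anthesis in ME034V against 20.8, 19.2, 15.3 and 18.3 CPM in A.10. At 50% SH it measured 4.40, 5.72, 8.31 and 6.97 CPM in ME034V against 2.50, 2.71, 1.97 and 1.09 CPM in A.10. The libraries of the ecotypes did not overlap at either stage. The difference (ME034V over A.10) passed the test at 50% SH (1.44, SE 0.20, edgeR adjusted p = 2.0e-06). It did not pass at anthesis (0.26, SE 0.14, edgeR adjusted p = 0.25). In 28 of 40 alternatives this call was lost, among them the fit on the 16 early libraries alone (-1.19, adjusted p = 0.085), with adjusted p up to 0.30.

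**Figure D4:**
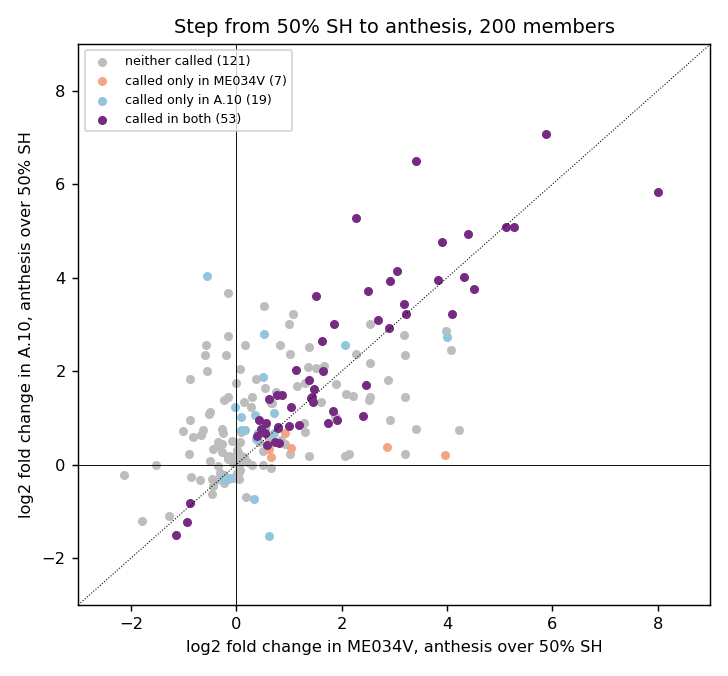
Log2 fold change of each of the 200 members from 50% SH to anthesis in ME034V (x axis) and A.10 (y axis), coloured by where edgeR called it, with equal change on the dotted line. Of the 53 called in both ecotypes 50 lie above 0 on both axes and 3 below. Points far from 0 that were not called have few early reads.

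The second comparison asks whether the late level was the same in the ecotypes, within the limits of 10 to 500 CPM set on each. At 8 DAA 9 members were higher in ME034V and 36 lower (edgeR adjusted p under 0.05), where 11.9% of all loci tested were higher and 9.85% lower. At 16 DAA 13 were higher and 26 lower, where 15.8% were higher and 12.6% lower. The shares of members lower, 18% at 8 DAA and 13% at 16 DAA, stood beside 9.82% and 13.4% of the loci inside the limits and 19% and 14% of the next 200 loci by score. The median log2 fold change of the members was -0.23 at 8 DAA and -0.09 at 16 DAA, against -0.01 and 0.02 over all loci. Differences over 2-fold were found in 7 members at 8 DAA and 9 at 16 DAA. The limits on the late levels leave less room for large differences, and the share over other loci was not counted. Without the 3 libraries that stand apart the counts were 9 higher and 73 lower at 8 DAA and 32 higher and 22 lower at 16 DAA, so the counts depended on those libraries. Leaving out ME034V 16 DAA replicate 3 alone gave 28 members higher at 16 DAA, and leaving out A.10 16 DAA replicate 3 gave 16 lower there. Members higher at 8 DAA were 5 without A.10 8 DAA replicate 1 or replicate 2 and 4 without ME034V 8 DAA replicate 4.

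Both late stages called 6 members higher in ME034V and 23 lower, and 0 changed sides. The 1.5-fold limit between 8 and 16 DAA in each ecotype favours this, and the share over all loci was not counted. The 23 had median log2 fold changes of -0.64 at 8 DAA and -0.64 at 16 DAA, and 6 of them were also lower in ME034V at anthesis and 3 at 50% SH. The 6 had medians of 0.73 and 1.01, and 0 of them were called at the early stages, where their reads are few.

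*Sevir.5G083500* on chromosome 5 (6668429 to 6673229) was the member furthest below A.10 at both late stages. In ME034V it measured 10.5, 11.2, 12.04 and 12.5 CPM at 8 DAA, against 83.6, 89.2, 86.2 and 97.3 CPM in A.10. At 16 DAA it measured 11.3, 10.1, 28.3 and 10.0 CPM in ME034V, against 83.02, 74.6, 80.7 and 87.9 CPM in A.10. The ecotypes were far apart at both stages, and replicate 3 at 16 DAA was the ME034V library nearest to A.10. The log2 fold change was -2.999 (SE 0.20, edgeR adjusted p = 7.7e-13) at 8 DAA and -2.50 (SE 0.20, edgeR adjusted p = 3.8e-11) at 16 DAA. The difference was there before the late stages, at -5.37 (SE 0.37, edgeR adjusted p = 7.2e-13) at 50% SH and -3.99 (SE 0.26, edgeR adjusted p = 2.7e-13) at anthesis. With means of 12.8 CPM at 50% SH and 26.1 CPM at anthesis, this member was already present in young A.10 heads. Reads of both ecotypes were mapped to the A.10 genome, and the part of sequence differences between the ecotypes in this value was not tested.

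*Sevir.4G174300* on chromosome 4 (16033051 to 16038137) had, at 8 DAA, the largest difference above A.10 among the members called higher at both late stages. In ME034V it measured 135, 127, 133 and 115 CPM at 8 DAA, against 48.1, 69.2, 51.1 and 51.0 CPM in A.10. At 16 DAA it measured 121, 127, 144 and 110 CPM in ME034V, against 78.1, 58.4, 47.1 and 45.6 CPM in A.10. Every ME034V library lay above every A.10 library. The log2 fold change was 1.16 (SE 0.20, edgeR adjusted p = 4.4e-05) at 8 DAA and 1.08 (SE 0.20, edgeR adjusted p = 9.5e-05) at 16 DAA. Over the 16 early libraries it had 3 reads in ME034V and 13 in A.10, of which A.10 anthesis replicate 3 held 9. This member was close to absent from heads up to anthesis.

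At 50% SH 16 members were higher in ME034V and 10 lower, where 8.17% of all loci were higher and 7.30% lower. At anthesis 10 were higher and 11 lower, where 7.12% were higher and 7.22% lower. Only 112 of 200 members had CPM above 1 in at least 3 of the 16 early libraries, so the share of 200 is not to be read against that of all loci. A fit on these 16 libraries, added after the data were seen, called 14 of the 112 higher and 6 lower at 50% SH, where 9.50% of loci tested were higher and 8.73% lower. At anthesis it called 9 higher and 6 lower, where 8.70% were higher and 8.62% lower. By DESeq2 18 members were lower at anthesis. Without A.10 anthesis replicate 3 there were 6 higher and 6 lower at anthesis, and without ME034V anthesis replicate 4 there were 6 lower. At 50% SH 3 were lower without A.10 replicate 1 and 6 without ME034V replicate 1.

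**Figure D5:**
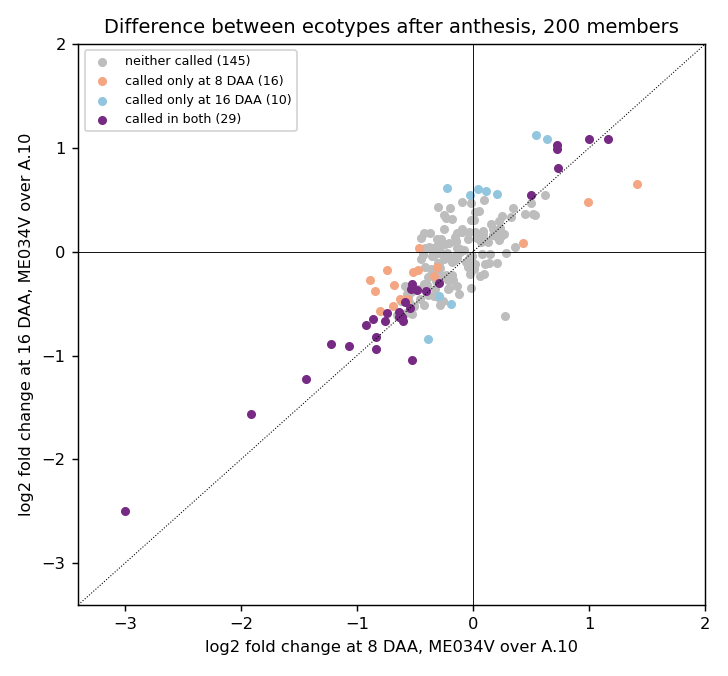
Log2 fold change of each of the 200 members in ME034V over A.10 at 8 DAA (x axis) and 16 DAA (y axis), coloured by where edgeR called it, with equal difference on the dotted line. The 29 members called at both stages lie on the same side of 0 at both, 6 above and 23 below, with *Sevir.5G083500* at the lower left.

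Members were shorter than the other loci inside the limits, though not than annotated loci in general. Their median length from start to end, introns included, was 2628 bp, against 3775.5 bp for the next 200 loci by score and 4483 bp for all loci inside the limits, and 2384 bp for all 38334 annotated loci. Of the members 39 (19.5%) were under 1000 bp, against 1.5% of the loci inside the limits, 3.5% of the next 200, 7.94% of loci tested and 20.7% of all annotated loci. The short loci lay in the strong part of the set, with 34 among the 94 members scoring at least 4. Strands were about even, with 94 members on the plus strand and 106 on the minus strand.

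Chromosome 8 held more members than its share of loci, 22 of 456 loci inside the limits (48.2 per 1000), where the other chromosomes held 14.5 to 22.4 per 1000. Neighbouring loci were both members in 9 pairs, against 2 pairs among the next 200 loci by score, and 17 members lay in 8 runs of adjacent loci. The longest run was *Sevir.8G199048*, *Sevir.8G199060* and *Sevir.8G199072* on chromosome 8 between 33917365 and 33923291, each 615 bp long on the minus strand and 2041 bp from the next. Together with *Sevir.8G199012*, *Sevir.8G199024* and *Sevir.8G199036* they form 6 loci of equal length in a row, of which 5 are members. *Sevir.8G199036* missed the limit on the ratio of 16 to 8 DAA in A.10, with a mean of 84.1 CPM at 16 DAA against 52.4 CPM at 8 DAA. Reads that mapped to several places were not counted, so loci that are near-identical copies would share or lose reads, and the levels of single loci in this row are uncertain.

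The loci of this run differed between ecotypes to unlike extents. *Sevir.8G199048* measured 114, 163, 49.3 and 79.3 CPM in ME034V at 8 DAA, against 23.5, 30.1, 35.9 and 57.2 CPM in A.10, which overlap. Its log2 fold change was 1.42 (SE 0.29, edgeR adjusted p = 0.00053) at 8 DAA and 0.65 (SE 0.29, edgeR adjusted p = 0.095) at 16 DAA. *Sevir.8G199060* measured 54.8, 58.9, 40.8 and 63.0 CPM in ME034V against 31.96, 58.2, 43.9 and 58.5 CPM in A.10 at 8 DAA, with 0.13 (SE 0.25, edgeR adjusted p = 0.78). *Sevir.8G199072* measured 131, 78.5, 163 and 100 CPM in ME034V against 42.0, 75.04, 87.1 and 70.0 CPM in A.10 at 8 DAA, with 0.72 (SE 0.26, edgeR adjusted p = 0.048), a call lost in 24 of 40 alternatives. At 16 DAA it was 1.02 (SE 0.26, edgeR adjusted p = 0.0039). Whether these changes differ from each other was not tested.

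The study's sugar genes were set beside the members by the same limits and score. Of the study's 177 sugar genes 79 met the same limits, and 7 of these reached the score of the last member, 8.86%, where 1.92% of other loci were taken as members. They were 2 of 9 starch synthases inside the limits, 1 of 4 cell wall invertases, 1 of 10 aquaporins, 1 of 9 SWEET sugar transporters and 2 of 14 glucosidases. None of the genes of the other families inside the limits did. Among these families were ADP-glucose pyrophosphorylases (0 of 2), starch branching enzymes (0 of 1), sucrose transporters, hexose transporters, sucrose synthases and amylases. The list was drawn up by the study for these seed heads and is no independent sample of genes.

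The starch synthase *Sevir.6G034900* averaged 1.47, 1.34, 251 and 211 CPM through the stages of ME034V and 2.26, 2.62, 268 and 263 CPM through those of A.10, a score of 6.40. The aquaporin *SvTIP3;3* (*Sevir.9G574900*), a channel of seed storage vacuoles, averaged 0.0878, 0.106, 114 and 104 CPM in ME034V and 0.150, 0.302, 75.6 and 62.0 CPM in A.10. The cell wall invertase *Sevir.7G099100* averaged 0.0281, 0.0970, 54.4 and 46.0 CPM in ME034V and 0.0984, 0.221, 53.3 and 37.7 CPM in A.10. *SvTIP3;3* and *Sevir.7G099100* had early means under 1 CPM, whereas those of *Sevir.6G034900* lay between 1.34 and 2.62 CPM. The second starch synthase, *Sevir.4G099100*, averaged 2.68, 4.40, 121 and 116 CPM in ME034V and 2.42, 4.83, 178 and 131 CPM in A.10. The sugar transporter *SvSWEET3a* (*Sevir.3G079200*) averaged 3.50, 5.34, 29.8 and 39.7 CPM in ME034V and 4.85, 6.94, 37.9 and 47.0 CPM in A.10, the weaker kind of pattern. The glucosidases *Sevir.4G276200* and *Sevir.7G173500* scored 3.28 and 1.98.

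In some of these genes the same libraries stood apart as in the members, and in others they did not. *Sevir.6G034900* measured 5.30 CPM in A.10 anthesis replicate 3, against 1.58 to 1.95 CPM in the other 3, and 82.9 CPM in ME034V 16 DAA replicate 3, against 203 to 287 CPM in the other 3. *Sevir.7G099100* measured 0.884 CPM in A.10 anthesis replicate 3 and had no read in the other 3. In contrast, *SvSWEET3a* was lowest in A.10 anthesis replicate 3, at 4.80 CPM against 6.24 to 10.3 CPM in the other 3. The glucosidase *Sevir.7G173500* measured 192 CPM in ME034V 16 DAA replicate 3, inside the 171 to 200 CPM of the other 3. Other sugar genes with a high score missed a limit. The starch synthase *Sevir.4G021900*, with a score of 6.93, was over the upper level at 2411 and 2360 CPM in ME034V and 3116 and 3523 CPM in A.10. Also over it were the ADP-glucose pyrophosphorylase *Sevir.5G244900* (score 5.52) and the starch branching enzyme *Sevir.1G181900* (4.47). *SvTIP3;1* (*Sevir.9G207100*), with 6.74, was not held, at 440 CPM at 16 DAA against 121 CPM at 8 DAA in ME034V and 360 against 145 CPM in A.10.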

How the data were processed

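Poly(A)-enriched libraries were read from both ends by the authors, who trimmed reads (Trim Galore), mapped both ecotypes to the A.10 genome (*S. viridis* v2.1) with Subread 1.6.2, and kept uniquely mapped reads. The deposited count files hold reads per locus from featureCounts (1.5.0-p1 per the file headers), without strand, so overlapping genes cannot be told apart. For each ecotype the authors also deposited log2 FPKM, from TMM-scaled counts and locus length from start to end. They were used for levels within an ecotype, and their mean over both ecotypes only to pick the member with the highest late FPKM.

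CPM were computed from all counted reads. TMM scaling would raise late over early levels by 0.21 (ME034V) and 0.20 (A.10) on the log2 scale. Tests used edgeR 4.0.16 in R 4.3.3 (quasi-likelihood, TMM, a filter of CPM above 1 in 3 or more libraries, Benjamini-Hochberg over all loci tested), with all 32 libraries for ecotypes and the 16 of an ecotype for the step to anthesis. SE is the log2 fold change over the square root of F. All 200 members passed the filter, many through late libraries alone. Scripts were tested on simulated data. Replicates are separate pools of plants. Intervals cover counting error only.

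The members and lists were chosen with earlier results of these data known. Loci were named by fixed rule: the highest score, the loci next to the rank limit, the highest late FPKM, the largest ecotype difference in each direction called at both late stages, the largest changes to anthesis called in both ecotypes (by the mean of both), the longest run of adjacent loci, and the sugar genes reaching the score. *Sevir.5G394400*, *Sevir.8G199000*, the other loci of its row and the sugar genes outside the limits were named after their values were seen. Alternatives were DESeq2 1.42.0, edgeR with DESeq2 size factors, other filters (none, or CPM above 5 in at least 4 libraries), a replicate block, thinning to equal depth, fewer or more libraries in a fit, each library left out, and other limits for the choice of members. Gene functions, sequences and promoters of members were not analysed here, since 0 of 38334 identifiers matched the RefSeq table.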

Additional observations from a re-analysis of the deposited data

Results flagged for a closer look

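Of 76 groups of 4 libraries looked at (the members' summed level and the named members with at least 40 reads), 6 held a library further from the rest than Dixon's 95% limit, where chance flags about 1 in 20. In A.10 anthesis replicate 3 the members summed to 1737 CPM, against 1645 to 1659 CPM in the other 3, and *Sevir.1G043700* measured 4.42 CPM, against 0 to 0.624 CPM. In A.10 8 DAA replicate 1 the members summed to 13290 CPM, against 15555 to 15810 CPM. *Sevir.5G083500* measured 28.3 CPM in ME034V 16 DAA replicate 3, against 10.00 to 11.3 CPM, although most members were lowest there. *Sevir.4G174300* measured 69.2 CPM in A.10 8 DAA replicate 2, against 48.1 to 51.1 CPM, and *Sevir.5G252300* 19.6 CPM in A.10 anthesis replicate 2, against 15.3 to 15.5 CPM. The step to anthesis of *Sevir.5G394400* differed between the ecotypes by the test of the difference, by -1.18 (ME034V minus A.10, log2 scale, edgeR adjusted p = 0.046).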

How the results depend on the processing

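Of 543 alternative counts for the comparisons and the choice of members, 489 stayed within 1.5 times the main count. Chosen again were 177 to 200 of the 200 members under the other pseudocounts, TMM scaling, thinning, group medians, no upper limit and each library left out (182 to 200), 150 with ME034V alone, 157 with A.10 alone, 156 with a looser limit on the ratio of 16 to 8 DAA (2-fold) and 83 with a tighter one. Without the 3 libraries that stand apart, members lower in ME034V were 6 at anthesis and 73 at 8 DAA, members higher at 16 DAA 32, and members that fell to anthesis in ME034V 8. By DESeq2 18 members were lower in ME034V at anthesis and after thinning 4, and after thinning 2 fell to anthesis in A.10. The single difference in the step to anthesis (1 member) was 0 with DESeq2 size factors, with no filter, with the replicate block, after thinning and with the 16 early libraries alone, where 6 members were lower in ME034V at 50% SH and 6 at anthesis. With each library left out, members higher and lower in ME034V were 12 to 17 and 3 to 12 at 50% SH, 6 to 11 and 6 to 15 at anthesis, 4 to 13 and 25 to 52 at 8 DAA, and 11 to 28 and 16 to 30 at 16 DAA. Members that rose and fell to anthesis were 44 to 60 and 2 to 8 in ME034V and 54 to 69 and 4 to 9 in A.10, and the step differed in 0 to 1. The lowest of these for 50% SH came without A.10 50% SH replicate 1 and for 8 DAA higher without ME034V 8 DAA replicate 4. The cause was not tested. Within an ecotype, 6 of 48 same-numbered pairs of libraries correlated over 0.1, against 20 of 144 pairs with unlike numbers. Between ecotypes 13 of 64 did, against 21 of 192, with highest values of 0.44 and 0.27. Whether replicate numbers pair libraries was not tested. With the replicate block, set within each ecotype, 11 members were higher and 39 lower in ME034V at 8 DAA. At 16 DAA 14 were higher and 32 lower, and 5 fell to anthesis in ME034V. Few early reads limit what can be seen up to anthesis.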
